A study of Mus musculus with 6 samples.

Results

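Transcripts of 9 genes that are characteristic of neutrophils (S100a8, S100a9, Csf3r, Mmp8, Ngp, Camp, Retnlg, Cxcr2 and Mpo) were followed in mouse brain RNA after transient stroke. The genes were taken by their symbols, and all 9 had a row among the 56826 rows of the table, which holds genes and cDNA clones. Adult male C57BL/6 mice of 8 to 9 weeks were anaesthetised with chloral hydrate. In the ischemia/reperfusion group a filament entered from the right carotid closed the middle cerebral artery for 60 min (1 h), and 6 h of reperfusion followed its withdrawal. Sham mice had the same operation with no filament. Each group had 3 libraries of ribosome-depleted total RNA, and the comparison asks which coding and long noncoding RNAs differ between the groups. The sources used here do not state which region of the brain was taken or whether blood was washed from the vessels. Nor do the labels tie each library to an animal of its own, and p-values therefore measure a spread between libraries that may be technical.

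Neutrophils are short-lived granulocytes that are made in the bone marrow and circulate in blood. Their granules are filled in sequence. Azurophil granule proteins such as myeloperoxidase are transcribed in the promyelocyte, specific granule proteins follow, and gelatinase granule proteins and surface receptors belong to late, mature cells, which have largely stopped transcribing the early set. After stroke, neutrophils are among the first blood leukocytes to reach the injured vessels and tissue, drawn by chemokines that act on Cxcr2. In bulk brain RNA a level of such a transcript reflects both the number of cells and the RNA in each, and fewer cells of a type and less RNA per cell cannot be told apart.

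The libraries held 45425867 to 49686109 counts, and brain tissue markers (12 tested, 6 positive, 0 called by edgeR and 0 with an unadjusted p under 0.05) were abundant in all of them, with Snap25 at 1121 ± 86.1 counts per 1e6 counts of the library (CPM) in sham, against 1109 ± 155 CPM in ischemia/reperfusion (SD, 3 libraries per group). Against this the 9 neutrophil genes together took 256 to 390 counts per sham library and 488 to 787 counts per ischemia/reperfusion library. Counts were compared with edgeR's quasi-likelihood test, adjusted by the Benjamini-Hochberg method over 40170 rows, with a threshold of 0.05.

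None of the 9 genes passed this threshold, in a comparison where 0.00249% of all rows were called higher and 0 rows lower. At an unadjusted p under 0.05 the same test had 4 of the 6 neutrophil genes with enough counts higher and 0 lower, against 8.73% of all rows higher and 6.9% lower. S100a8, S100a9, Csf3r and Mmp8 were those 4, and their estimates were 1.65- to 2.49-fold in the ratio of mean CPM. In CPM, 5 of the 9 genes had every ischemia/reperfusion library above every sham library, where 12.3% of all rows with a count did. The 5 genes were the same 4 and Ngp. Mpo, the marker of the earliest stage, had lower values after ischemia/reperfusion, with overlapping groups. DESeq2 called 2 of 6 genes, S100a8 and S100a9, with 1.10% of the rows it adjusted called higher.

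**Figure D1:**
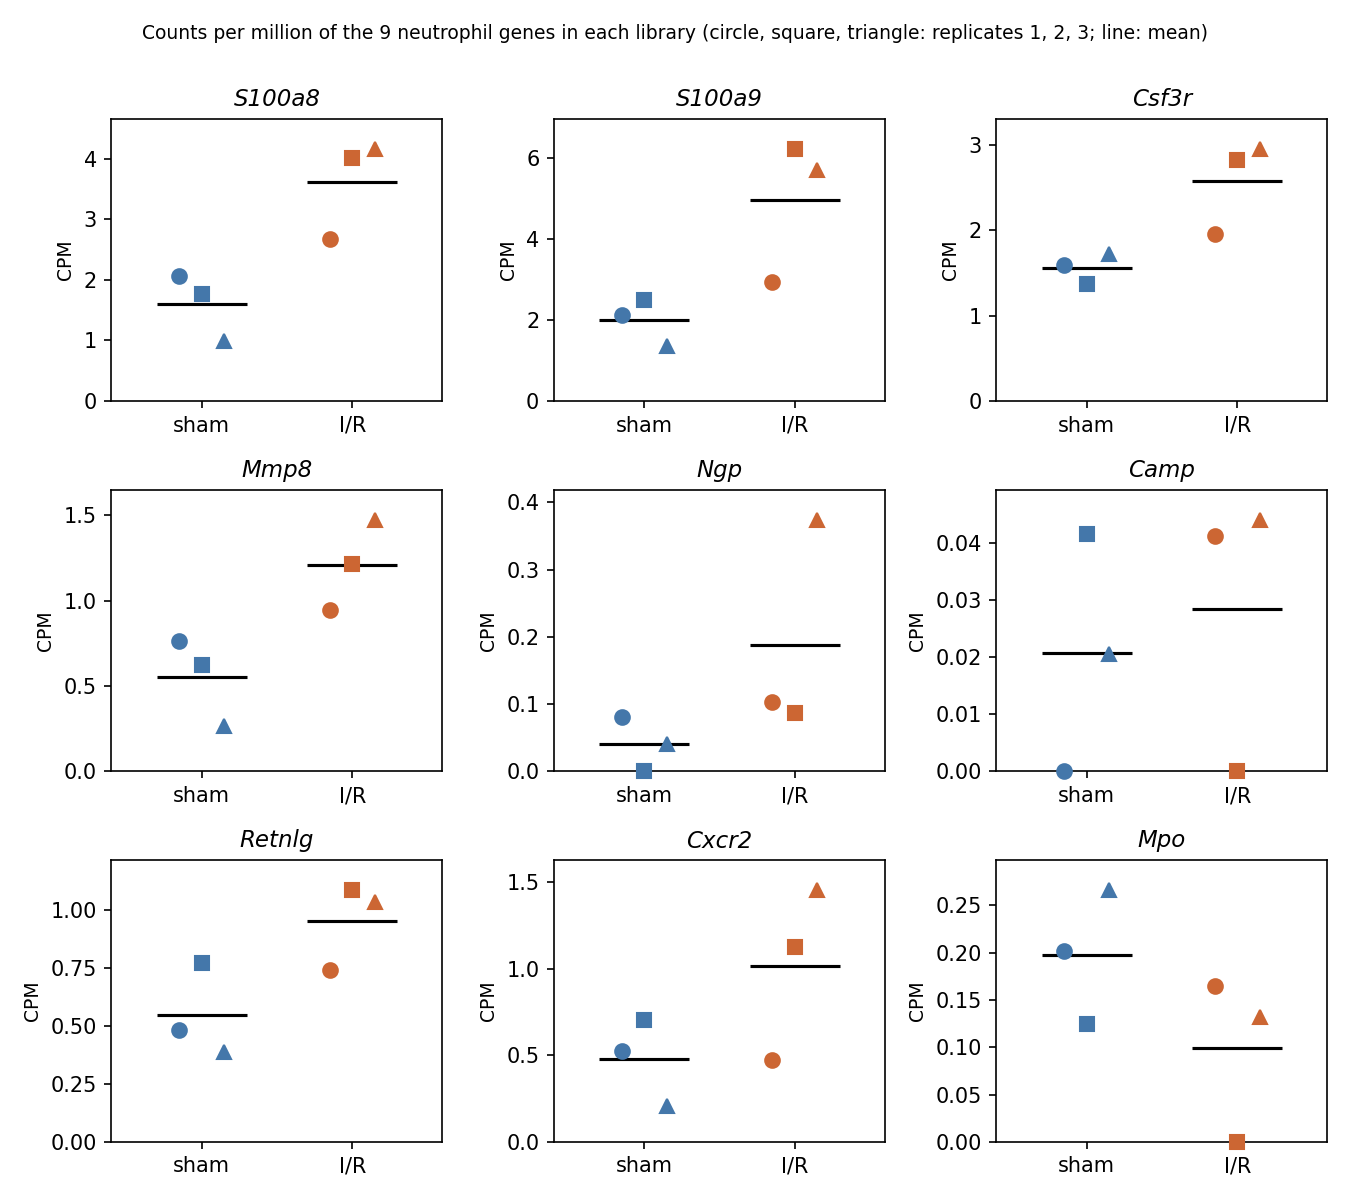
Level of each of the 9 genes (y axis, CPM, from 0) in each library, by group (x axis; I/R is ischemia/reperfusion), with symbols for replicates and a line at the mean. The orange points lie above all blue points for S100a8, S100a9, Csf3r, Mmp8 and Ngp, replicate 1 is the lowest orange point of the 6 better-counted genes, and the Camp and Mpo panels rest on at most 2 and 13 counts per library.

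S100a8 and S100a9 encode the subunits of calprotectin, a calcium- and zinc-binding heterodimer that makes up a large part of neutrophil cytosol and is also made by monocytes. Both lie on chromosome 3 (mm10), S100a8 from 90669071 to 90670034 on the plus strand and S100a9 from 90692633 to 90695691 on the minus strand. Their promoters are printed because the pair had the smallest p-values of the 9 genes and moved together over the libraries. The windows run from 250 bases before to 50 bases after the start (RefSeq, GRCm38.p6), S100a8 at chr3:90668821-90669120 on the plus strand and S100a9 at chr3:90695672-90695971 on the minus strand. Capitals mark matches to TTNNGNAA, a core of the sites of C/EBP factors, which drive granulocyte genes, and to GAGGAA, a core of the sites of the myeloid factor PU.1, each on either strand.
S100a8: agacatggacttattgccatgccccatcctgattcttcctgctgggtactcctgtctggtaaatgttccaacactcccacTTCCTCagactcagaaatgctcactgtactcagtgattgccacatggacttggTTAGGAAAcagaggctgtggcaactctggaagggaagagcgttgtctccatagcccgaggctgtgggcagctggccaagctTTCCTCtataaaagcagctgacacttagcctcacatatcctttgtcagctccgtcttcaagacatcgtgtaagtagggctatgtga
S100a9: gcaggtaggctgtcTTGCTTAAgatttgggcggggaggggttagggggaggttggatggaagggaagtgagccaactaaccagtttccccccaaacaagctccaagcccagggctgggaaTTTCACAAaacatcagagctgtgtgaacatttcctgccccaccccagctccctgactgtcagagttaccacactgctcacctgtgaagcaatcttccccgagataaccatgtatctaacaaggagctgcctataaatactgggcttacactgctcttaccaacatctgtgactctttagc
The S100a8 window held 1 match to the C/EBP letters, which began 117 bases before the start, and 2 to the PU.1 letters, 170 and 36 bases before it. The S100a9 window held 2 C/EBP matches, 236 and 130 bases before the start, and 0 PU.1 matches. No match overlapped one of the other motif. Among the 9 genes 5 windows held the C/EBP letters and 5 the PU.1 letters, against 40.7% and 28.3% of all 32851 promoter windows. A match describes letters only, and its absence says only that these letters are not in the window.

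S100a8 had 103, 85 and 48 counts in sham replicates 1, 2 and 3, and 130, 185 and 189 counts in ischemia/reperfusion replicates 1, 2 and 3. S100a9 had 106, 120 and 66 counts in sham and 143, 287 and 259 counts in ischemia/reperfusion, in the same order. For both genes sham replicate 3 was the lowest library, ischemia/reperfusion replicate 1 was the lowest of its group, and the groups did not overlap. S100a8 averaged 1.61 ± 0.563 CPM in sham, against 3.62 ± 0.817 CPM in ischemia/reperfusion (SD, 3 libraries per group), and its log2 fold change was 1.11 ± 0.28 (SE, edgeR adjusted p = 0.160). S100a9 averaged 1.99 ± 0.584 CPM and 4.96 ± 1.76 CPM (SD, 3 libraries per group), and its log2 fold change was 1.26 ± 0.31 (SE, edgeR adjusted p = 0.162). Without ischemia/reperfusion replicate 1, which left 2 libraries in that group, both genes passed, S100a8 at 1.28 (edgeR adjusted p = 0.0361) and S100a9 at 1.52 (0.0150), in a fit that called 1.59% of all rows higher. DESeq2 on all 6 libraries gave adjusted p-values of 0.0211 and 0.00753.

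The subunits were present in similar amounts per length. RPKM (counts per kilobase of row and per 1e6 counts) averaged 4.10 ± 1.44 for S100a8 and 4.08 ± 1.20 for S100a9 in sham, and 9.23 ± 2.08 and 10.2 ± 3.61 in ischemia/reperfusion (SD, 3 libraries per group). The ratio of S100a9 to S100a8 in RPKM was 0.827, 1.13 and 1.10 in sham replicates 1, 2 and 3, and 0.884, 1.25 and 1.10 in ischemia/reperfusion. The ratios of the groups therefore overlapped, and in each group replicate 1 was the one with less S100a9 than S100a8. The pair took 44.5% to 53.9% of the counts of the 9 genes in sham libraries and 55.9% to 61.8% in ischemia/reperfusion libraries.

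**Figure D2:**
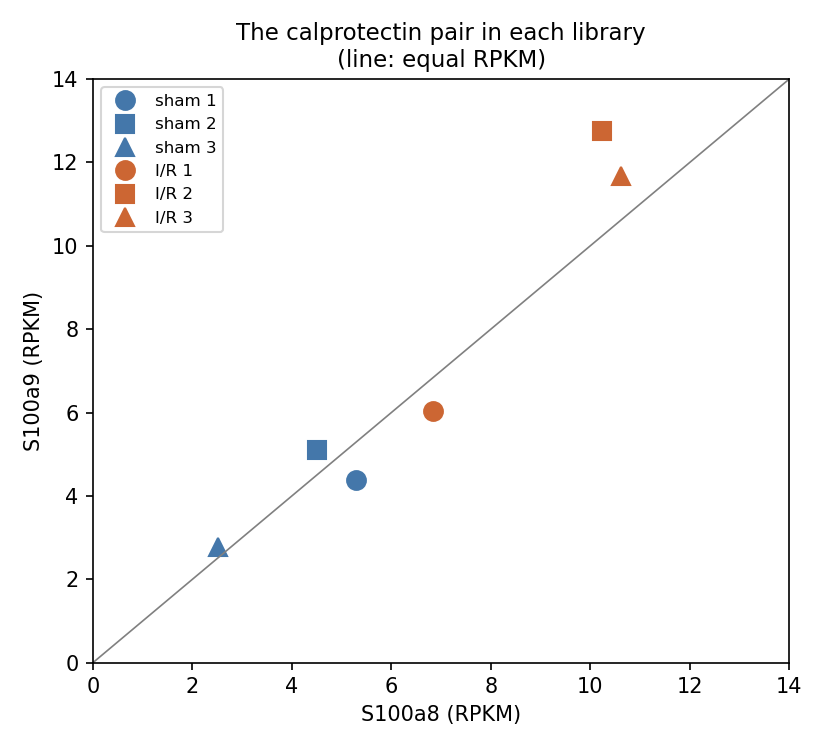
S100a8 (x axis, RPKM) against S100a9 (y axis, RPKM) in the 6 libraries, with a line of equal values. The points follow the line from sham replicate 3, the lowest, to ischemia/reperfusion replicates 2 and 3, the highest.

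The receptors of the group are Csf3r, the receptor for granulocyte colony-stimulating factor, and Cxcr2, the receptor for the neutrophil-attracting chemokines Cxcl1 and Cxcl2. Csf3r lies on chromosome 4 from 126024659 to 126044975 and Cxcr2 on chromosome 1 from 74153994 to 74161246, both on the plus strand (mm10). Csf3r had 79, 66 and 84 counts in sham replicates 1, 2 and 3, and 95, 130 and 134 counts in ischemia/reperfusion. It was the most even of the 9 genes within sham, of the 6 tested genes it was the one for which sham replicate 3 was the highest sham library, and its groups did not overlap. Its means were 1.56 ± 0.176 and 2.57 ± 0.540 CPM (SD, 3 libraries per group), and its log2 fold change was 0.67 ± 0.23 (SE, edgeR adjusted p = 0.223). Cxcr2 had 26, 34 and 10 counts in sham and 23, 52 and 66 counts in ischemia/reperfusion. Here ischemia/reperfusion replicate 1 lay below sham replicates 1 and 2, so the groups overlapped. Its means were 0.478 ± 0.254 and 1.02 ± 0.499 CPM (SD, 3 libraries per group), and its log2 fold change was 1.03 ± 0.49 (SE, edgeR adjusted p = 0.344).

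Mmp8 and Retnlg are products of late neutrophil differentiation. Mmp8, neutrophil collagenase, is on chromosome 9 from 7558429 to 7568486, and Retnlg, which encodes a small secreted protein of the resistin family found in rodent marrow and blood granulocytes, is on chromosome 16 from 48872608 to 48874498, both on the plus strand (mm10). Mmp8 had 38, 30 and 13 counts in sham replicates 1, 2 and 3, and 46, 56 and 67 counts in ischemia/reperfusion. All 3 ischemia/reperfusion libraries were above the sham libraries, and sham replicate 3 was again the lowest. The means were 0.551 ± 0.257 and 1.21 ± 0.264 CPM (SD, 3 libraries per group), and its log2 fold change was 1.07 ± 0.37 (SE, edgeR adjusted p = 0.227). Retnlg had 24, 37 and 19 counts in sham and 36, 50 and 47 counts in ischemia/reperfusion. In CPM 2 of 3 ischemia/reperfusion libraries were above all sham libraries, and replicate 1 lay just below sham replicate 2, at 0.741 against 0.769 CPM. The means were 0.547 ± 0.198 and 0.953 ± 0.185 CPM (SD, 3 libraries per group), and its log2 fold change was 0.74 ± 0.34 (SE, edgeR adjusted p = 0.326). Per length Retnlg was the third most abundant of the 9 genes in both groups, at 0.899 ± 0.325 and 1.57 ± 0.305 RPKM (SD, 3 libraries per group), below the calprotectin pair and above Csf3r at 0.386 ± 0.0434 and 0.636 ± 0.133 RPKM.

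**Figure D3:**
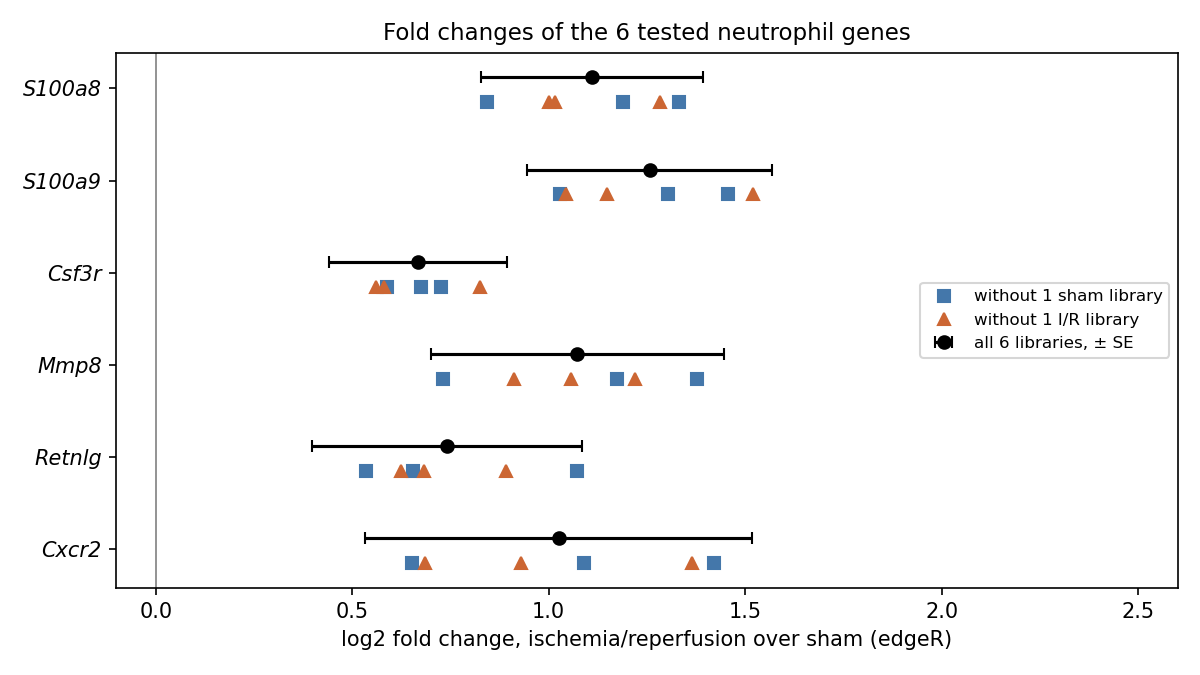
Log2 fold change (x axis, ischemia/reperfusion over sham, edgeR) of the 6 genes with enough counts, as the estimate with its SE from all 6 libraries (black) and the estimates after leaving out 1 sham (blue) or 1 ischemia/reperfusion (orange) library. All estimates lie above 0, and those of Cxcr2 spread from 0.65 to 1.42.

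Ngp, Camp and Mpo had too few counts for the test, which needed 0.207 CPM or more in at least 3 libraries. Of the 6 genes that passed this filter, 5 met that level in all libraries and Cxcr2 in 2 sham and 3 ischemia/reperfusion libraries. Ngp, a specific granule protein of the mouse related to cathelicidins, is on chromosome 9 from 110419808 to 110423012 on the plus strand (mm10). It had 4, 0 and 2 counts in sham replicates 1, 2 and 3, and 5, 4 and 17 counts in ischemia/reperfusion. In CPM its groups did not overlap, but 17 of the 26 ischemia/reperfusion counts came from replicate 3 and the other libraries of both groups held 5 counts or fewer. The exact permutation test of CPM over 3 against 3 libraries gave a two-sided p of 0.10, the smallest this design allows, for Ngp. The ratio of pooled CPM was 4.54, with an exact conditional 95% interval from 1.83 to 13.5 that covers counting error only.

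Camp, the mouse cathelicidin and a specific granule antimicrobial peptide, is on chromosome 9 from 109847377 to 109849456 on the minus strand (mm10). It had 0, 2 and 1 counts in sham and 2, 0 and 2 counts in ischemia/reperfusion, so all 6 libraries were at or below a floor of 3 counts (0.0604 to 0.0660 CPM) and no difference was detectable at this depth. Mpo, the peroxidase of azurophil granules, is on chromosome 11 from 87793784 to 87804412 on the plus strand (mm10). It had 10, 6 and 13 counts in sham replicates 1, 2 and 3, and 8, 0 and 6 counts in ischemia/reperfusion. All 3 ischemia/reperfusion libraries were below the sham mean in CPM, with 1 of them at 0 counts, but the groups overlapped (exact permutation test, two-sided, p = 0.30). The ratio of its pooled CPM was 0.505, with an exact conditional 95% interval from 0.247 to 0.988 for counting error only. The promoter of Mpo, at chr11:87793534-87793833 on the plus strand, is printed as that of the member whose values moved the other way, with capitals as above.
Mpo: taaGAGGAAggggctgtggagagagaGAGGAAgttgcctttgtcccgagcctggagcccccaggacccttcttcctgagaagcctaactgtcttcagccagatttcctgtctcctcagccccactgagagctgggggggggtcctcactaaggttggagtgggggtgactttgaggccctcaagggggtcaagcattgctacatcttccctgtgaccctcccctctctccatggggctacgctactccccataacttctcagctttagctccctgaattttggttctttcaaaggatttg
It held 2 PU.1 matches, which began 247 and 224 bases before the start, and 0 C/EBP matches. The windows of Csf3r, Cxcr2 and Camp also held 0 C/EBP matches. Ngp had 3 C/EBP matches, Mmp8 had 2 and Retnlg had 1.

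Of the 6 tested genes all were positive on the log2 scale, with a median change of 1.05. Over all 40170 rows the median was 0.02 and 53.1% were positive. The spread followed the libraries. Sham replicate 3 was the lowest sham library for 5 of these 6 genes, and ischemia/reperfusion replicate 1 was the lowest of its group for 6 of 6. The 9 genes summed to 7.85, 7.90 and 5.24 CPM in sham replicates 1, 2 and 3, and to 10.05, 16.6 and 17.3 CPM in ischemia/reperfusion. The sums did not overlap, and ischemia/reperfusion replicate 1 lay nearer to sham replicates 1 and 2 than to the other libraries of its own group. The ratio of the group means was 2.09, and 1.79 when S100a8 and S100a9 were left out.

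The authors' deposited table, which lists 8 of the 9 genes (Camp is the exception), gave q-values under 0.05 for S100a8, S100a9, Csf3r, Mmp8 and Cxcr2, all higher, in a comparison with 14.7% of its rows called higher. In the authors' deposited table the q-value was 1.3e-13 for S100a9 and 2.42e-08 for S100a8. The authors' deposited table listed Retnlg at q = 0.0948, Ngp at q = 0.106 and Mpo at q = 0.459.

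Other genes of the neutrophil programme, from lists drawn up by granule class, gave 0 calls in either direction with edgeR, DESeq2 and limma-voom. At an unadjusted p under 0.05 in edgeR 1 gene (Itgam) was higher, where 8.73% of all rows were. Of 7 other azurophil granule and progenitor genes only Prtn3 and Prss57 were tested, while Elane (neutrophil elastase), Ctsg, Ms4a3, Cebpe and Gfi1 had 4 counts or fewer in every library. Prtn3, proteinase 3, had 0.640 ± 0.0918 CPM in sham, against 0.993 ± 0.417 CPM in ischemia/reperfusion (SD, 3 libraries per group), with overlapping groups. Of 9 other specific granule genes, 5 were tested and 4 of these were positive on the log2 scale (median 0.18). Itgam, the integrin subunit CD11b that microglia also carry, had 8.83 ± 1.13 and 12.0 ± 2.19 CPM (SD, 3 libraries per group), and its groups did not overlap (log2 fold change 0.38, edgeR adjusted p = 0.301). Ltf, lactoferrin, had 3, 0 and 0 counts in sham and 2, 6 and 13 counts in ischemia/reperfusion, too few for the test. Fcnb, also too low for the test, went the other way, with 1, 1 and 2 counts in sham and 0, 0 and 0 in ischemia/reperfusion. Lcn2 overlapped between groups, at 8.57 ± 4.21 and 10.1 ± 4.23 CPM (SD, 3 libraries per group). Ltb4r1 had a log2 fold change of −0.03.

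Of 17 other mature neutrophil genes, 16 matched a row and 11 were tested. The unmatched one was Ly6g. Among the tested genes 10 were positive on the log2 scale (median 0.44), and 0 had groups that did not overlap. Their sum did not overlap, at 8.67 to 9.88 CPM in sham against 10.5 to 15.3 CPM in ischemia/reperfusion, but the largest part of it came from Hdc, histidine decarboxylase, which histaminergic neurons also express. Clec4e, a receptor for damaged cells, had 2, 19 and 0 counts in sham and 15, 29 and 16 counts in ischemia/reperfusion. Here sham replicate 2 exceeded ischemia/reperfusion replicates 1 and 3. Mmp9, the gelatinase of neutrophil granules that brain cells also make, had 1.10 ± 0.251 and 1.17 ± 0.0910 CPM (SD, 3 libraries per group).

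The subunits of the phagocyte NADPH oxidase, which neutrophils share with microglia, were tested for 6 of 6 genes, and all 6 were positive on the log2 scale (median 0.57). Groups did not overlap for 4 of these, Cybb, Ncf1, Ncf4 and Rac2, where 14% of all tested rows were higher without overlap. Ncf4, a cytosolic subunit, had 11, 15 and 7 counts in sham and 36, 17 and 47 counts in ischemia/reperfusion, and its log2 fold change was 1.59 (edgeR adjusted p = 0.189). Ncf1, the p47 subunit, had 5.17 ± 0.617 and 7.57 ± 0.996 CPM (SD, 3 libraries per group), and its log2 fold change was 0.49 (edgeR adjusted p = 0.207). For Ncf4 and Ncf1 the order of the ischemia/reperfusion libraries differed from that of the calprotectin genes, with replicate 2 the lowest.

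Ligands of the neutrophil receptors were followed as a list of 6, of which 5 were tested, all of them positive on the log2 scale (median 1.37). Cxcl1, a ligand of Cxcr2, had 26, 122 and 14 counts in sham replicates 1, 2 and 3, and 280, 273 and 171 counts in ischemia/reperfusion. Cxcl2, another ligand of Cxcr2, had 8, 54 and 10 counts in sham and 199, 144 and 71 counts in ischemia/reperfusion. In both, sham replicate 2 stood above the other sham libraries while the groups still did not overlap. The log2 fold changes were 2.15 for Cxcl1 and 2.50 for Cxcl2 (edgeR adjusted p = 0.302 and 0.234). Without sham replicate 2 they were 3.61 and 3.94 and passed (edgeR adjusted p = 0.0189 and 0.0289).

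Csf3, the ligand of Csf3r, had 7, 73 and 0 counts in sham and 99, 71 and 40 counts in ischemia/reperfusion, so its groups overlapped through sham replicate 2. Its log2 fold change was 1.37 (edgeR adjusted p = 0.643), and 4.29 without sham replicate 2 (edgeR adjusted p = 0.150). Among the ischemia/reperfusion libraries Cxcl2 and Csf3 were highest in replicate 1 and lowest in replicate 3. S100a8, Csf3r, Mmp8 and Cxcr2 were lowest in replicate 1 and highest in replicate 3. Other genes of both sets had other orders in CPM. Cxcl1 was highest in replicate 2 (5.77, 5.92 and 3.76 CPM in replicates 1, 2 and 3), and Cxcl5 was lowest there. Ppbp, S100a9 and Retnlg were lowest in replicate 1 and highest in replicate 2. For the members themselves, leaving out sham replicate 2 gave 0 calls, with 0.0799% of all rows called higher.

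Among adhesion molecules that hold leukocytes on endothelium, Sele (E-selectin) had 6, 15 and 1 counts in sham and 47, 20 and 16 counts in ischemia/reperfusion, without overlap (log2 fold change 1.88, edgeR adjusted p = 0.246). Selp (P-selectin) and Icam1 overlapped between groups, at 0.418 ± 0.429 and 0.518 ± 0.165 CPM for Selp and 10.5 ± 9.30 and 12.3 ± 4.59 CPM for Icam1 (SD, 3 libraries per group). Vcam1 had lower values in all 3 ischemia/reperfusion libraries (log2 fold change −0.58, edgeR adjusted p = 0.150). DESeq2 called Vcam1 lower, and so did edgeR without ischemia/reperfusion replicate 1 (adjusted p = 0.0452). The share of all rows called lower in those fits was not counted. Without sham replicate 2 the log2 fold changes were 2.95 for Sele, 1.37 for Selp and 1.13 for Icam1, against 1.88, 0.25 and 0.17 with all 6 libraries. None of these passed in edgeR (adjusted p = 0.257, 0.509 and 0.529 without that library). With all 6 libraries, of the 5 genes of this list 4 had a positive log2 fold change. Receptors that have been assigned to calprotectin were positive in 2 of 5 tested genes, with a median of −0.21, and Tlr4 had 2.49 ± 0.591 and 2.23 ± 0.746 CPM (SD, 3 libraries per group).

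Markers of other blood and brain cells were summed per library beside the 9 genes. Erythroid markers (5 of 7 tested, all 5 positive, median 0.20) summed to 144 to 261 CPM in sham, against 201 to 313 CPM in ischemia/reperfusion, and overlapped. Hba-a1 and Hba-a2 have near-identical counts, so they do not count as independent genes. Both the neutrophil genes and the erythroid sum were lowest in sham replicate 3. The erythroid sum was highest in ischemia/reperfusion replicate 2, and in ischemia/reperfusion replicate 3, which had the highest neutrophil sum, it was 201 CPM, below sham replicate 1 at 261 CPM. Per 100 CPM of erythroid markers the 9 genes had 3.01 to 4.21 CPM in sham, against 4.64 to 8.63 CPM in ischemia/reperfusion, without overlap. This ratio carries no test, and the erythroid sum includes both Hba-a1 and Hba-a2.

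Platelet markers (5 of 6 tested positive, median 0.10) summed to 73.2 to 98.5 CPM in sham, against 83.4 to 95.1 CPM in ischemia/reperfusion. Nearly all of it came from Gp1bb, so the sum follows that row and hides the others. Of the 6 tested genes 1, Gp9, was higher without overlap and 0 were lower, where 14% of all tested rows were higher. Clec1b had 4, 0 and 1 counts in sham and 6, 7 and 4 counts in ischemia/reperfusion, too few for the test. Monocyte markers (2 of 5 tested positive, median −0.02) summed to 61.9 to 71.5 CPM in sham, against 70.9 to 95.2 CPM in ischemia/reperfusion, and most of that sum came from Ly6c1, which endothelium also expresses, and Nr4a1, an immediate early gene of neurons. Ly6c2, the defining gene of inflammatory monocytes, had 3, 4 and 3 counts in sham and 4, 5 and 12 counts in ischemia/reperfusion. Ccr2, the chemokine receptor of these cells, had 0.664 ± 0.464 and 0.702 ± 0.429 CPM (SD, 3 libraries per group).

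Microglia markers (8 of 9 tested positive, median 0.19) summed to 153 to 177 CPM in sham, against 168 to 225 CPM in ischemia/reperfusion, and overlapped. Cx3cr1, the fractalkine receptor, had 563, 304 and 560 counts in sham and 770, 1244 and 1044 counts in ischemia/reperfusion (log2 fold change 1.13, edgeR adjusted p = 0.168). Without ischemia/reperfusion replicate 1 edgeR called Cx3cr1 higher (log2 fold change 1.31, adjusted p = 0.0403). That fit called 1.59% of all rows higher. With all 6 libraries none of the tested genes in the monocyte, platelet, erythroid and microglia lists was called by edgeR or limma-voom. On the same libraries DESeq2 called Cx3cr1 and Sall1 higher, with 1.10% of the rows it adjusted called higher. At an unadjusted p under 0.05 edgeR had 3 of the 9 microglia markers higher, against 8.73% of all rows. The part of any of these cell types in the values of the 9 genes was not tested.

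**Figure D4:**
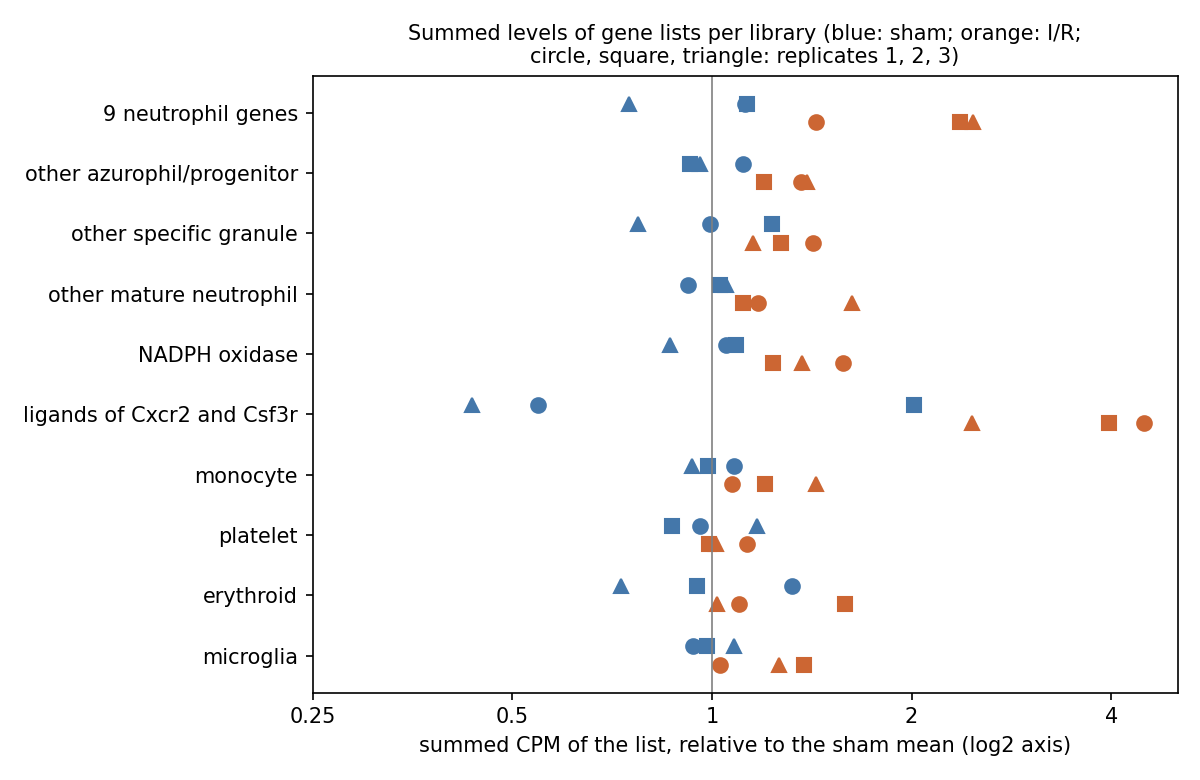
Summed CPM of each gene list in each library divided by the list's sham mean (x axis, log2 scale), for the 9 neutrophil genes and other lists (y axis). The 9 genes and the NADPH oxidase, azurophil/progenitor, other mature neutrophil and ligand lists have all orange points right of all blue points, while the other specific granule, erythroid, platelet, monocyte and microglia lists overlap. Nearly all of the azurophil/progenitor sum comes from Prtn3 and Prss57, and each of these genes overlaps between groups.

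The gene-symbol rows of at least 1 CPM whose log2(CPM + 0.1) followed that of S100a9 most closely over the 6 libraries were Ralgapa2 (Pearson r = 0.996), Anks6 (0.993), Galnt14 (0.986), Tle2 (0.980) and Zbtb37 (0.978). None of these stands in the marker lists used here, and S100a8 ranked at 18 of the 14452 rows with r = 0.964. Csf3r ranked at 398 with r = 0.843. Mmp8, Retnlg and Cxcr2 averaged under 1 CPM and were not ranked, and their r with S100a9 was 0.921, 0.953 and 0.933. With 6 libraries in 2 groups, 167 rows had r over 0.9, so the order is a description of these libraries.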

How the data were processed

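Ribosome-depleted total RNA of mouse brain was sequenced as read pairs, 3 sham and 3 ischemia/reperfusion libraries, per the labels' protocols. The genome build was mm10, per the submitters' processing notes. For the aligner, counting tool, annotation and strandedness no name is given in the sources used here. Deposited counts per row are whole numbers with no normalization, per the file headers. The deposited RPKM values match counts per kilobase of row and per 1e6 counts of the library for 100% of entries, within a relative tolerance of 0.001. The authors' deposited table gives log2 fold changes of mean RPKM with p-values and q-values. Their test is not named in these sources.

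Members were matched by symbol, and no other row lay within 1000 bases of any member. Of 115 genes in the lists 114 matched, 3 by an older symbol with the same position. Cybb and Ppbp each stand in 2 lists. Counts were fitted with edgeR 4.0.16 in R 4.3.3 (TMM factors, filterByExpr defaults, robust quasi-likelihood F test, two-sided, Benjamini-Hochberg adjustment over 40170 rows). Standard errors of log2 fold changes were taken as the absolute change over the square root of the F statistic. The fit was tested on simulated data. CPM use the column total. Alternatives were other scaling factors (RLE, upper-quartile), other filters (none, or 1 CPM on average), limma-voom (limma 3.58.1), DESeq2 1.42.0, gene-symbol rows only, the replicate number as a block, and leaving out each library. The members, lists and tests were chosen with earlier results of these data known. All members were named, and of each other list those with the smallest p and, after their values were seen, further genes. Intervals and floors cover counting error only.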

Additional observations from a re-analysis of the deposited data

How the results depend on the processing

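All 81 combinations of a tested member and an alternative kept a positive log2 fold change. The side of the threshold was kept in 77 of these. The exceptions were S100a8 and S100a9 with DESeq2 and without ischemia/reperfusion replicate 1, where both passed. The number of members called higher was 0 with all 6 libraries in edgeR, 2 with DESeq2, and 0 to 2 when 1 library was left out. It was 0 with the other scalings, filters, limma-voom and gene-symbol rows. Leaving out 1 library moved the log2 fold change of S100a8 between 0.84 and 1.33, that of S100a9 between 1.03 and 1.52 and that of Cxcr2 between 0.65 and 1.42, and the ratio of summed CPM between 1.86 and 2.42. With TMM-scaled CPM that ratio was 2.01. The number of members whose groups did not overlap was 5 to 7 when 1 library was left out, where 16.4% to 22.3% of all rows with a count were higher without overlap, and 5 with TMM-scaled CPM, where 9.54% were. With the replicate number as a replicate block 0 members were called. Same-numbered libraries had correlations of their deviations from the group means of −0.07, 0.03 and 0.11. Sham replicates 2 and 3 correlated best with the ischemia/reperfusion library of the same number, and sham replicate 1 with replicate 2 (0.11). Such correlations cannot show whether same-numbered libraries were handled together. Counts of 17 or fewer limit Ngp, Camp and Mpo.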

Other observations

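Lymphocyte markers, a list of 9 genes of T, B and cytotoxic cells, had no gene with enough counts for the test and no gene above 11 counts in any library. Their counts summed to 11, 12 and 16 in sham replicates 1, 2 and 3, and to 23, 42 and 29 in ischemia/reperfusion, without overlap. Gzma, a granule protease of cytotoxic cells, had 3, 2 and 0 counts in sham and 6, 7 and 4 counts in ischemia/reperfusion. Ms4a1, the B cell antigen CD20, had 0 counts in all sham libraries and 6, 1 and 1 counts in ischemia/reperfusion. Cd3e, a T cell receptor subunit, had 3, 2 and 2 counts in sham and 0, 2 and 0 counts in ischemia/reperfusion.

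Relative to the summed microglia markers, the 9 neutrophil genes had 2.96 to 5.12 CPM per 100 CPM in sham and 5.97 to 8.39 CPM in ischemia/reperfusion, without overlap. Relative to the monocyte markers they had 8.47 to 12.07 CPM and 14.2 to 20.8 CPM per 100 CPM. Relative to the platelet markers they had 5.32 to 10.79 CPM in sham and 10.57 to 20.29 CPM in ischemia/reperfusion per 100 CPM, and the groups overlapped. These ratios were chosen after the values were seen and carry no test.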
